A study of Mus musculus with 8 samples.

Results

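Mouse embryonic stem cell lines lacking Ago2 were compared by their small RNA: an AGO1 line that had not been induced, in libraries A and B, and the Ago2 knockout lines 1 and 2, in 1 library each. All 4 of these libraries, of the 8 in the study, come from E14 cells of 129/Ola background and carry the Ago2 knockout. The cells of all groups were grown with 15% serum and LIF at 100 U/mL. The AGO1 line also holds an ectopic AGO1 transgene that doxycycline at 1 µg/mL switches on, and it had received no doxycycline here. Its genotype label names it after knockout line 1, so that line is its namesake and line 2 is a separate knockout line. Both libraries of the AGO1 line carry the same source name, and the labels do not say whether they are separate cultures, so p-values measure only the spread between libraries. Per the labels' protocols, stable AGO1 lines were kept in puromycin at 2 µg/mL, which cannot be told apart from the line itself. The comparison asks what the AGO1 line carried before its transgene was induced, relative to each line without the transgene. It covers every mature miRNA that passed the abundance filter, 475 of the 1915 listed. Among the rest, 901 had no count in any library. The wild type E14 libraries A and B and the induced AGO1 libraries A and B entered the fit so that the spread was estimated from more libraries.

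A mature miRNA is held by an Argonaute protein and pairs with target RNAs mainly through its seed, bases 2 to 8 from its 5′ end, so that miRNAs with the same seed share many targets. Mammals have several Argonautes that hold miRNAs, and AGO2 is the one known for strong slicing of targets. Many miRNAs lie in clusters that are transcribed together, such as miR-290-295, which is typical of mouse embryonic stem cells, and the imprinted Dlk1-Dio3 cluster, whose activity is known to vary between pluripotent lines. A hairpin gives a 5p and a 3p arm, and usually 1 of the arms is kept at a higher level.

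The sequences below are from RefSeq (GRCm38.p6), with the seed in capitals. The first 6 are the tested miRNAs with the seed AUUGCAC. They are shown because 2 of them, miR-363-3p and miR-92b-3p, stood on opposite sides of the comparison.
miR-363-3p: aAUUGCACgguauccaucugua
miR-92b-3p: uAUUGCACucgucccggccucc
miR-25-3p: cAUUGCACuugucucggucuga
miR-92a-3p: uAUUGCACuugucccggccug
miR-32-5p: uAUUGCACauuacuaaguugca
miR-367-3p: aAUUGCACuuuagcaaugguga
The next are the other miRNAs with the smallest adjusted p against both lines, with the 3p partner of miR-433-5p and with miR-200c-3p, which has the seed of miR-429-3p.
miR-433-5p: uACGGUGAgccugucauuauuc
miR-433-3p: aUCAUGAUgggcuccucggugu
miR-429-3p: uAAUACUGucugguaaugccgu
miR-200c-3p: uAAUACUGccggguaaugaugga
miR-290a-5p: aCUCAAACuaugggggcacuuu
miR-22-3p: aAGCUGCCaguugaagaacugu
The next share the seed AAAGUGC and lie in the miR-363 cluster on the X chromosome.
miR-106a-5p: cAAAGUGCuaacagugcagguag
miR-20b-5p: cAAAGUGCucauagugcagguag
The last are miRNAs at a lower level in knockout line 2 than in line 1 and the AGO1 line.
miR-871-5p: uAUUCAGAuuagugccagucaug
miR-871-3p: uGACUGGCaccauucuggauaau
miR-470-5p: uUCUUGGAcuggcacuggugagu
miR-465c-5p: uAUUUAGAauggcgcugaucug
miR-181a-5p: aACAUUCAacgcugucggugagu
miR-302d-3p: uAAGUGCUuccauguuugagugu
miR-211-5p: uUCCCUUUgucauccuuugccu
miR-205-5p: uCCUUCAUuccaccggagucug

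Counts of mature miRNAs summed to 359099 in knockout line 1, 163467 in line 2, 736895 in the uninduced line A and 292895 in B. Levels are given in CPM (counts in 1000000, after each library total was scaled by edgeR's TMM factor), and 1 count is worth 5.03 CPM in knockout line 2. Where a library had 0 counts, up to 3 are allowed for, or 3.99 to 15.1 CPM over the 4 libraries. These floors and the counting intervals hold counting error alone, and reads that carry no molecular identifier can be copies of 1 molecule. Over 222 miRNAs with a mean of at least 100 CPM, the median absolute log2 difference was 0.20 between uninduced A and B. It was 0.29 and 0.34 between knockout line 1 and uninduced A and B, 0.40 and 0.41 between line 2 and A and B, and 0.36 between the knockout lines. No pair of these libraries differed by as little as sampling noise. miR-290-295 took 30.8 and 29.5% of counts in knockout lines 1 and 2 and 26.1 and 25.4% in the uninduced line A and B. Of the lists that mark other cell types, muscle took 0.000612 to 0.00273% of counts over the 4 libraries (0 of 18 members passed the filter), neural 0.126 to 0.167%, blood cell 0.652 to 0.794%, fibroblast and smooth muscle 0.217 to 0.305%, and liver and endoderm 0.285 to 0.319%. Some markers, miR-1a-3p and miR-206-3p of muscle, miR-122-5p of liver and miR-223-3p of myeloid cells, had 0 counts in all 4. Others were present: of muscle, miR-499-5p had 1 to 7 counts and miR-208b-3p 0 to 4. The neural miRNA miR-124-5p had 50 and 30 counts in knockout lines 1 and 2 and 120 and 44 in the uninduced line A and B. The filter was passed by 11 neural, 5 blood cell, 7 fibroblast and smooth muscle, and 3 liver and endoderm members. miR-451a, whose hairpin is cut by AGO2, had 0 counts in all 8 libraries.

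Against both knockout lines together, 0 of 475 miRNAs (0%) were called at an adjusted p under 0.05 by edgeR's quasi-likelihood F test with Benjamini-Hochberg adjustment. The smallest adjusted p was 0.134, shared by 6 miRNAs. An unadjusted p under 0.05 was reached by 72 miRNAs, 40 higher (8.42% of those tested) and 32 lower (6.74%) in the uninduced AGO1 line. The DESeq2 Wald test called 15 (3.16%), of which 9 were higher and 6 lower. Both AGO1 line libraries lay above both knockout libraries for 105 miRNAs (22.1%) and below both for 107 (22.5%). For 134 of the 475 the 95% interval of the fold change lay inside 2-fold in either direction, and among the 68 with a mean of at least 1000 CPM it did so for 54. With both knockout lines kept, there were also 14 calls with no abundance filter and 2 without TMM factors. Without knockout line 1 there were 61 calls among 527 tested, and without line 2 there were 33 among 520.

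The 6 miRNAs with the smallest adjusted p were 4 with lower and 2 with higher levels in the AGO1 line. miR-363-3p, from the X-linked miR-106a-363 cluster (chrX:52741693-52741767, minus strand, with no other annotated gene there), measured 554 CPM in knockout line 1, 262 in line 2, and 108 and 136 in the uninduced line A and B. Both AGO1 line libraries were under the lower knockout library, and wild type, at 3939 and 3015 CPM, was far above all 4. The log2 fold change against both lines was -1.78 ± 0.33 (SE). miR-92b-3p (chr3:89227116-89227198, minus strand), which has the same seed, measured 22343 CPM in knockout line 1, 22723 in line 2, and 34549 and 38946 in the uninduced line A and B. Here the knockout lines were nearly equal and the AGO1 line was above them, with a log2 fold change of 0.71 ± 0.16. Wild type had 9503 and 7643 CPM of miR-92b-3p, below all 4.

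miR-429-3p of the miR-200 family, which represses the transcription factors Zeb1 and Zeb2 in epithelial cells, measured 491 CPM in knockout line 1, 367 in line 2, and 179.7 and 238 in the uninduced line A and B. Its log2 fold change was -1.06 ± 0.25. miR-290a-5p, an arm of the first hairpin of the embryonic stem cell cluster (chr7:3218626-3218708, plus strand), measured 566 CPM in knockout line 1, 533 in line 2, and 278 and 288 in the uninduced line A and B. The log2 fold change was -0.96 ± 0.20, and the 2 libraries of each group lay close together beside that gap. miR-22-3p, which lies in an exon of its host transcript Mir22hg, measured 40938 CPM in knockout line 1, 40319.5 in line 2, and 57196 and 61236 in the uninduced line A and B. Its log2 fold change was 0.54 ± 0.13, and wild type, at 40898 and 40919 CPM, was at the knockout level. miR-433-5p (chr12:109591715-109591838, plus strand, opposite an exon of Rtl1) had 10 and 3 counts in the knockout lines and 1 and 1 in the AGO1 line. That is a ratio of 0.0876 with a 95% counting interval of 0.00959 to 0.387.

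**Figure D1:**
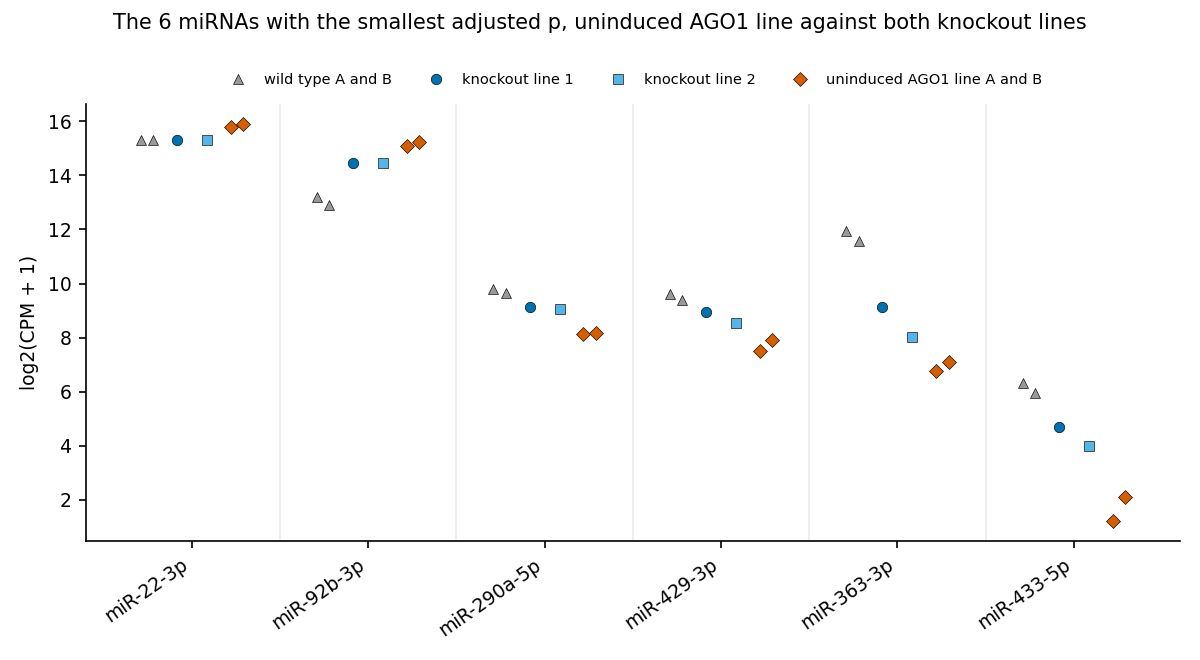
Level of the 6 miRNAs with the smallest adjusted p, as log2(CPM + 1) on the vertical axis, with 1 point for each library of wild type, knockout lines 1 and 2 and the uninduced AGO1 line. The 2 AGO1 line points lie above both knockout points for miR-22-3p and miR-92b-3p and below both for the other 4; miR-363-3p goes from 3939 and 3015 CPM in wild type to 108 and 136 in the AGO1 line.

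The seed AUUGCAC was shared by 6 tested miRNAs, whose log2 fold changes had a median of 0.02, against -0.01 over all miRNAs tested. miR-25-3p, at 19075 CPM in knockout line 1, 14468 in line 2, and 17938 and 14454 in the uninduced line A and B, overlapped between the groups (log2 fold change -0.05 ± 0.18). miR-92a-3p, which 2 loci encode, overlapped as well, at 10732 CPM in knockout line 1, 12299.6 in line 2, and 11757 and 12608 in the uninduced line A and B (0.08 ± 0.17). The whole seed group took 5.89 and 6.06% of counts in knockout lines 1 and 2 and 6.57 and 6.83% in the AGO1 line A and B. The summed level was thus a little higher in both AGO1 line libraries. Of the 6, 1 was above both knockout lines (miR-92b-3p) and 2 below both (miR-363-3p and miR-32-5p), beside 22.1 and 22.5% of all miRNAs. miR-32-5p had 19 and 7 counts in knockout lines 1 and 2 and 26 and 6 in the AGO1 line A and B.

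Other miRNAs of the miR-106a-363 cluster also lay below the knockout lines. This cluster, a paralog of miR-17-92 on the minus strand of the X chromosome, holds miRNAs that promote proliferation in many cell types. Of 10 tested miRNAs with a RefSeq position there (starts from 52741697 to 52742541), 7 were below both knockout lines and 0 above both. Of all miRNAs, 22.5% were below both and 22.1% above both. The median log2 fold change of the 10 was -0.81, and this grouping by position was made after the values were seen. Among the 7, miR-19b-2-5p had only 2 counts in the AGO1 line, with 6 in knockout line 1 and 1 in line 2. miR-106a-5p measured 651 CPM in knockout line 1, 709 in line 2, and 459 and 377 in the uninduced line A and B, a log2 fold change of -0.69 ± 0.21 (adjusted p 0.206 by edgeR). miR-20b-5p, with the same seed, measured 758 CPM in knockout line 1, 679 in line 2, and 522 and 479 in the uninduced line A and B (-0.52 ± 0.20). miR-18b-5p measured 74.8 CPM in knockout line 1, 156 in line 2, and 57.2 and 66.1 in the uninduced line A and B (-0.85 ± 0.38), with knockout line 2 well above line 1. The members that overlapped between the groups were miR-92a-2-5p and miR-19b-3p and miR-92a-3p, which the miR-17-92 cluster on chromosome 14 also encodes and whose source locus these counts cannot tell. In the wider list of miR-17-92 and its paralogs, 14 of 26 tested members were below both knockout lines (beside 22.5% of all miRNAs) and 0 above both, with a median of -0.34. That median was -0.64 without uninduced library A and -0.13 without B. The 10 tested miRNAs at the miR-17-92 locus itself had a median of -0.10 and the 6 at the miR-106b-25 locus -0.10.

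In the miR-200 family, 0 of 8 tested members were called against both lines, 7 were below both knockout lines (beside 22.5% of all miRNAs) and 0 above both, and the median log2 fold change was -0.72. That median was -1.22 without uninduced library A and -0.39 without B, which moved the median of all miRNAs to -0.18 and 0.11. The family took 0.134 and 0.117% of counts in knockout lines 1 and 2 and 0.0615 and 0.0597% in the AGO1 line, so its summed level was lower in both AGO1 line libraries than in either knockout library. miR-200c-3p, which has the seed of miR-429-3p but another locus, on chromosome 6, measured 122 CPM in knockout line 1, 131 in line 2, and 66.6 and 52.9 in the uninduced line A and B (-1.05 ± 0.32). miR-141-3p, its neighbour there, measured 277 CPM in knockout line 1, 151 in line 2, and 139.8 and 136 in the uninduced line A and B (-0.66 ± 0.31). The let-7 family, which accumulates as stem cells differentiate, had 5 of 11 tested members below both knockout lines and 2 above both. Of all miRNAs, 22.5% were below both and 22.1% above both. The let-7 median was -0.72. let-7g-5p measured 87.3 CPM in knockout line 1, 70.4 in line 2, and 35.9 and 49.6 in the uninduced line A and B (-0.95 ± 0.36), while let-7c-5p measured 117 CPM in knockout line 1, 80.5 in line 2, and 219.6 and 142 in the uninduced line A and B and lay the other way (0.86 ± 0.33). The let-7 median was -0.09 without knockout line 1 and -0.42 without uninduced library B.

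On the other side stood the group that miR-125 forms with miR-99 and miR-100, of which 5 of 7 tested members were above both knockout lines and 1 below both, beside 22.1 and 22.5% of all miRNAs, with a median of 0.59 (0.36 without uninduced library A). Its members in the miR-99b cluster on chromosome 17 include miR-125a, which lies in an exon of Spaca6, and all 5 miRNAs tested there, let-7e-5p included, were above both knockout lines (a grouping by position made after the values were seen). miR-125a-3p measured 79.8 CPM in knockout line 1, 101 in line 2, and 199.7 and 205 in the uninduced line A and B (1.19 ± 0.30). miR-125a-5p measured 4236 CPM in knockout line 1, 4905 in line 2, and 7710.2 and 5995 in the uninduced line A and B (0.59 ± 0.19), and miR-99b-5p 669 CPM in knockout line 1, 820.0 in line 2, and 1162 and 1061 in the uninduced line A and B (0.58 ± 0.18). Wild type had 3005 and 3029 CPM of miR-99b-5p, above all 4 libraries, and 2673 and 2525 CPM of miR-125a-5p, below all 4. In the miR-34 and miR-449 family, known as targets of p53, 3 of 6 members were above both knockout lines, beside 22.1% of all miRNAs, and 0 below both. The median was 0.50, with 1.11 without knockout line 2, 0.33 without uninduced library A and 0.99 without B. miR-34c-5p led it at 559 CPM in knockout line 1, 860.2 in line 2, and 1435 and 1167 in the uninduced line A and B (0.89 ± 0.25, adjusted p 0.188 by edgeR).

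The Dlk1-Dio3 cluster on chromosome 12 had 31 of 77 tested members above both knockout lines and 8 below both, beside 22.1 and 22.5% of all miRNAs. The median log2 fold change was 0.21, or 0.23 without 3 members that had no count in 1 of the groups. It was 0.47 without knockout line 1, 0.14 without line 2, 0 without uninduced library A and 0.44 without B. At an unadjusted p under 0.05, 15 members were higher and 1 lower, beside 8.42 and 6.74% of all miRNAs. The cluster took 21.6 and 17.1% of counts in knockout lines 1 and 2 and 23.2 and 24.6% in the AGO1 line, so line 2 was the low library and line 1 was near the AGO1 line. miR-127-3p, whose hairpin lies opposite an exon of Rtl1, a retrotransposon-derived gene it represses, measured 84718 CPM in knockout line 1, 57494 in line 2, and 93264 and 116441 in the uninduced line A and B (0.56 ± 0.19). miR-541-5p measured 18463 CPM in knockout line 1, 11565 in line 2, and 26419.9 and 22386 in the uninduced line A and B (0.70 ± 0.21), and miR-409-3p 4882 CPM in knockout line 1, 3597 in line 2, and 6143 and 8432 in the uninduced line A and B (0.78 ± 0.22). miR-673-3p, at 521 CPM in knockout line 1, 589 in line 2, and 907 and 866 in the uninduced line A and B (0.68 ± 0.19), was lowest in line 1. The rodent-specific repeat cluster in Sfmbt2, whose members have nearly the same sequence and may share reads, had 14 of 41 tested members below both knockout lines and 2 above both, with a median of -0.44. That median was -0.95 without knockout line 1 and -0.08 without line 2. With library totals in place of TMM factors the median of all miRNAs was -0.19. The group of miR-125 then had a median of 0.40, the Dlk1-Dio3 cluster 0.04, the Sfmbt2 cluster -0.62 and the miR-200 family -0.90. Such a change of scale moves all miRNAs by nearly the same amount. It therefore cannot test where a group stands relative to the others.

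**Figure D2:**
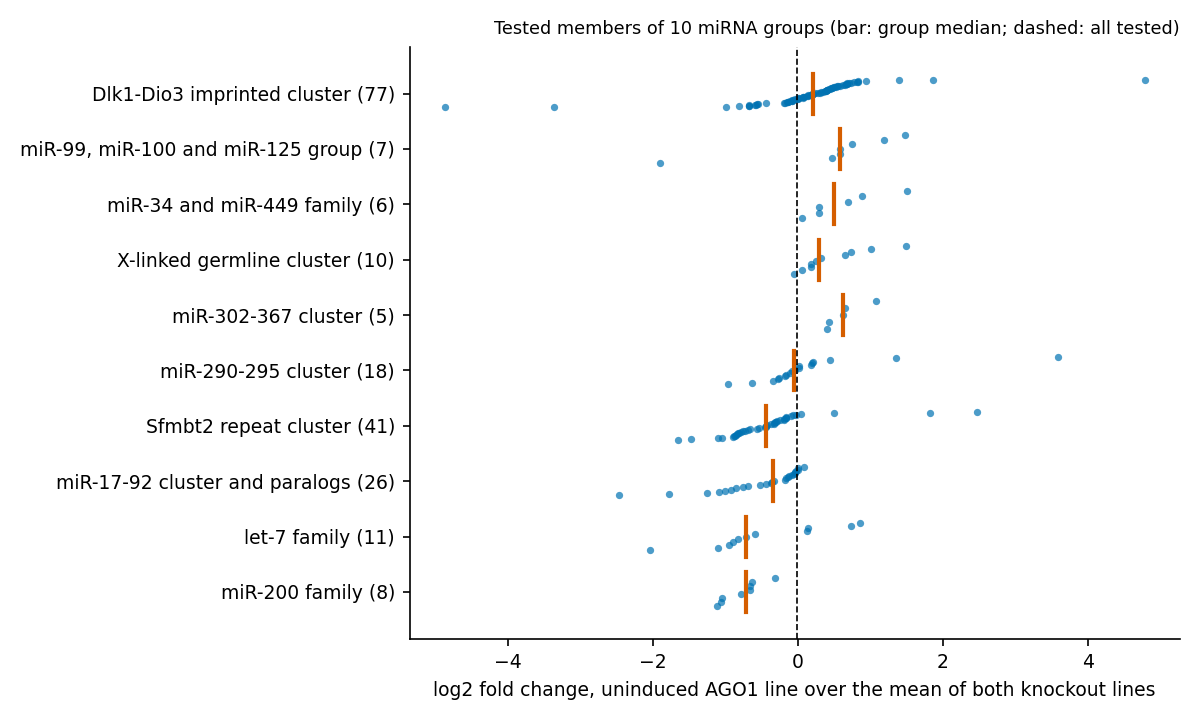
Log2 fold change of the uninduced AGO1 line over both knockout lines on the horizontal axis, with 1 point for each tested member of 10 miRNA groups (number tested in brackets), an orange bar at each group's median and a dashed line at the median of all 475. The medians run from -0.72 in the miR-200 family to 0.63 in the miR-302-367 cluster, none of the points was called, and the far points of the Dlk1-Dio3 and miR-290-295 clusters include miRNAs with no count in 1 of the groups.

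Several miRNAs that set the knockout lines far from wild type were at or near the knockout level in the uninduced AGO1 line. miR-301a-3p measured 67.4 CPM in knockout line 1, 75.5 in line 2, and 74.5 and 82.7 in the uninduced line A and B, against 3920.3 and 3638 in wild type A and B. The log2 fold change against the knockout lines was 0.14 ± 0.23, with a 95% interval of -0.36 to 0.64. miR-103-3p measured 252 CPM in knockout line 1, 176 in line 2, and 225 and 222 in the uninduced line A and B, against 3609 and 3288 in wild type, with an interval of -0.44 to 0.52. miR-431-5p measured 422 CPM in knockout line 1, 372 in line 2, and 535 and 622 in the uninduced line A and B, against 7415 and 6204 in wild type, and both AGO1 line libraries lay a little above both knockout lines (0.54 ± 0.20, interval 0.10 to 0.97). All 3 intervals lay inside 2-fold, and these miRNAs were chosen after their values were seen. The abundant stem cell miRNA miR-295-3p measured 146463 CPM in knockout line 1, 133721 in line 2, and 145089 and 128051 in the uninduced line A and B, with an interval of -0.36 to 0.29. miR-294-3p, with the seed AAGUGCU that it shares with miR-302 miRNAs, overlapped between the groups as well (interval -0.65 to 0.31).

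The balance of the 2 arms was tested in the 135 hairpins with both arms tested, and 1 (0.741%) was called: miR-433. Its 5p arm had 10 and 3 counts in knockout lines 1 and 2, beside 49 and 10 of the 3p arm, which is 16.9 and 23.1% 5p. In the AGO1 line A and B it had 1 and 1 counts beside 111 and 42, which is 0.893 and 2.33%. Wild type had 4.19 and 3.85%, from 66 and 67 counts of the 5p arm. The log2 change of the 5p to 3p ratio was -3.98 ± 0.74 (adjusted p 0.0169 by edgeR over 135 hairpins). With thinned counts it was not called. The call was also lost without knockout line 1, without uninduced library A and without library B. miR-290a, whose 5p arm took 32 and 27% in the knockout lines and 16 and 15.2% in the AGO1 line, had an adjusted p of 0.162.

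Each knockout line was then compared with the AGO1 line on its own, in a fit with 5 groups in which the lone knockout library is assumed to vary like the other groups. The comparisons with line 1 and line 2 share the AGO1 line libraries. Against its namesake, knockout line 1, 37 miRNAs (7.79%) were called, 21 higher (4.42%) and 16 lower (3.37%) in the AGO1 line. Against knockout line 2, 60 (12.6%) were called, 37 higher (7.79%) and 23 lower (4.84%). Between the knockout lines, 38 (8%) were called, 16 higher (3.37%) and 22 lower (4.63%) in line 2. With library totals in place of TMM factors the split of higher and lower calls was 13 and 21 against line 1 and 16 and 30 against line 2.

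For calls named from here on, each alternative that ended one is given, other than abundance filters and the 2-fold limit. miR-363-3p fell against line 1 (log2 fold change -2.22 ± 0.25, adjusted p 2.7e-10 by edgeR). Against line 2 it was -1.14 ± 0.29 (adjusted p 0.00566), a call that ended with counts thinned to the smallest library. miR-290a-5p fell against line 1 (-1.00 ± 0.24, adjusted p 0.00338 by edgeR), beside -0.92 ± 0.26 (adjusted p 0.0128) against line 2, a call that ended without uninduced library B. miR-429-3p fell against line 1 (-1.26 ± 0.26, adjusted p 0.000364 by edgeR), beside -0.84 ± 0.29 (adjusted p 0.04) against line 2, a call that ended without uninduced library A or B or either induced library, with DESeq2 and with thinned counts. miR-92b-3p rose against line 1 (0.72 ± 0.20, adjusted p 0.0161 by edgeR) and line 2 (0.69 ± 0.20, adjusted p 0.0149), and both calls ended without either induced library. The first also ended with thinned counts and the second without TMM factors. miR-34c-5p rose against line 1 (1.22 ± 0.25, adjusted p 0.00031 by edgeR), and its value against line 2 was 0.60 ± 0.24 (adjusted p 0.096).

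Among the groups, 4 of the 7 members of the group of miR-125, miR-99 and miR-100 rose against line 1, beside 4.42% of all miRNAs, and 0 fell: miR-125a-3p, miR-125a-5p, miR-125b-1-3p and miR-99b-5p. miR-125b-1-3p, at 34.9 CPM in knockout line 1, 65.4 in line 2, and 119.8 and 145 in the uninduced line A and B, rose by 1.90 ± 0.49, a call that DESeq2 did not make. The other 3 calls ended without uninduced library A, without either induced library and with thinned counts, and those of miR-125a-5p and miR-99b-5p also without knockout line 2 and without TMM factors, that of miR-125a-3p also with DESeq2. Against line 2, 0 of the 7 were called, with a median of 0.44 beside 0.75 against line 1. On the X chromosome miR-363-5p, miR-450a-5p and miR-322-5p fell against line 1 as well, miR-450a-5p from 199.6 CPM to 67.9 and 66.1, with 75.5 in line 2. The calls of miR-363-5p and miR-450a-5p ended with thinned counts, and the call of miR-322-5p ended without uninduced library B or either induced library and with DESeq2 or its size factors. miR-210-3p, a miRNA induced by hypoxia, fell from 1043 CPM in line 1 to 474 and 413 (-1.23 ± 0.23, adjusted p 8.19e-05 by edgeR), with 367 in line 2 and 893 and 1087 in wild type.

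**Figure D3:**
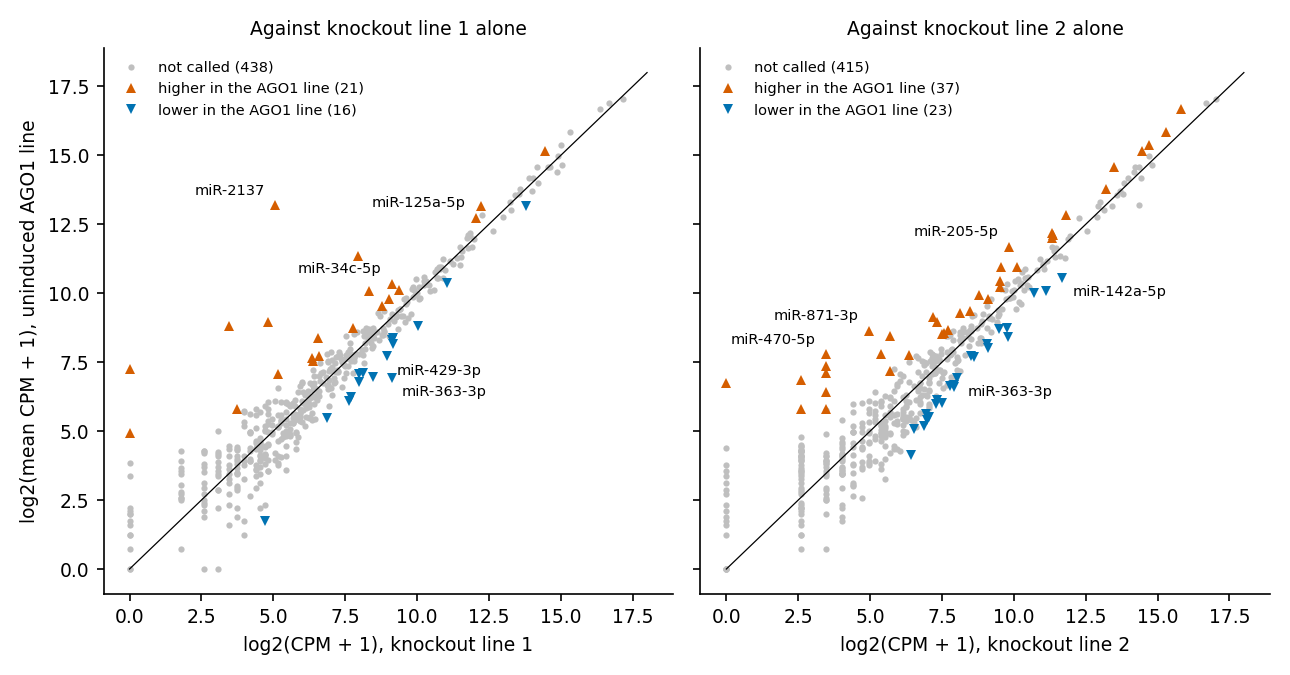
Level in the uninduced AGO1 line (mean of A and B) against knockout line 1 (left) and line 2 (right), both as log2(CPM + 1), with 1 point for each of 475 miRNAs and the diagonal at equal levels. Orange triangles are called higher in the AGO1 line (21 and 37), blue triangles lower (16 and 23); miR-871-3p and miR-470-5p stand off the diagonal against line 2, and miR-2137 against line 1.

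Against line 2, 16 of 77 tested members of the Dlk1-Dio3 cluster rose in the AGO1 line and 0 fell, beside 7.79% of all miRNAs higher and 4.84% lower, with a median of 0.47, beside 0.01 for all miRNAs. Against line 1, 1 rose and 1 fell, with a median of 0.17, and between the knockout lines 0 rose and 2 fell in line 2 (median -0.33). miR-541-5p rose against line 2 by 1.08 ± 0.20 (adjusted p 7.21e-05 by edgeR) and miR-409-3p by 1.02 ± 0.22 (adjusted p 0.000885). miR-433-3p measured 122 CPM in knockout line 1, 50.3 in line 2, and 148 and 139 in the uninduced line A and B. It rose by 1.52 ± 0.40. The 5p arm of this hairpin had 3 counts in line 2 and 1 and 1 in the AGO1 line, too few to give a fold. miR-127-3p rose by 0.87 ± 0.19, a call that ended without induced library A. In the Sfmbt2 cluster 7 of 41 members fell against line 2, beside 4.84% of all miRNAs, and 0 rose, all 7 of them miR-466 and miR-467 miRNAs, and the median was -0.92, beside -0.05 against line 1. miR-466n-5p measured 13.3 and 19.8 CPM in the AGO1 line (-2.46 ± 0.65), with 24.9 CPM in line 1 and 85.5 in line 2, and its call ended without uninduced library A and with DESeq2.

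A set of miRNAs was lower in line 2 than in both line 1 and the AGO1 line. Among them was a germline cluster on the X chromosome known for its expression in testis: of 10 tested members, 4 rose in the AGO1 line against line 2 (beside 7.79% of all miRNAs) and 0 fell, and 0 were called against line 1. The median was 3.08 against line 2, or 2.42 with the 2 members that had no count in line 2 set to their bound, and -0.17 against line 1. The cluster took 0.111 and 0.00918% of counts in knockout lines 1 and 2 and 0.107 and 0.0994% in the AGO1 line, beside 0.0238 and 0.0272% in wild type. miR-871-3p (chrX:66810428-66810504, minus strand) measured 339 CPM in knockout line 1, 30.2 in line 2, and 394 and 403 in the uninduced line A and B, and 73.6 and 79.2 in wild type. It differed from line 2 by 3.71 ± 0.46 (adjusted p 3.53e-08 by edgeR) and from line 1 by 0.23 ± 0.28 (adjusted p 0.734). Its partner miR-871-5p had 25 counts in line 1 and 0 in line 2, and was at least 7.04-fold higher in the AGO1 line than in line 2. miR-470-5p had 94 and 2 counts in lines 1 and 2, and the AGO1 line was 23-fold above line 2 (95% counting interval 6.3 to 191). miR-465c-5p, encoded at 2 neighbouring loci, had 49 and 1 counts, a ratio to line 2 of 23.4 (interval 4.12 to 931). 

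Others in the set lie outside the X chromosome. miR-205-5p, an epithelial miRNA on chromosome 1, measured 3807 CPM in knockout line 1, 916 in line 2, and 3525 and 3062 in the uninduced line A and B, and 344 and 369 in wild type, so that line 2 was still above wild type. It rose against line 2 by 1.85 ± 0.24 (adjusted p 8.99e-08 by edgeR), with -0.21 ± 0.21 against line 1. miR-211-5p, which lies in an intron of Trpm1 and is known from melanocytes, measured 322 CPM in knockout line 1, 50.3 in line 2, and 394 and 311 in the uninduced line A and B and rose by 2.82 ± 0.44. miR-181a-5p, encoded on chromosomes 1 and 2, had 77 and 2 counts in lines 1 and 2 and 172 and 159 CPM in the AGO1 line, a ratio to line 2 of 16.7 (95% counting interval 4.55 to 139). In the miR-302-367 cluster (median against both lines 0.63, 2.26 without line 1 and 0.15 without line 2), known from primed pluripotent cells, miR-302a-3p and miR-302d-3p rose against line 2 and 0 of 5 tested members were called against line 1. miR-302d-3p measured 227 CPM in knockout line 1, 40.2 in line 2, and 212 and 231 in the uninduced line A and B, and 30.8 and 21.6 in wild type. miR-298-5p and miR-296-3p, imprinted neighbours on chromosome 2, rose against line 2 too, miR-298-5p from 755 CPM to 2063 and 1934, with 1806 in line 1. In bulk libraries, fewer cells that carry a miRNA and less of it in each cell cannot be told apart.

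**Figure D4:**
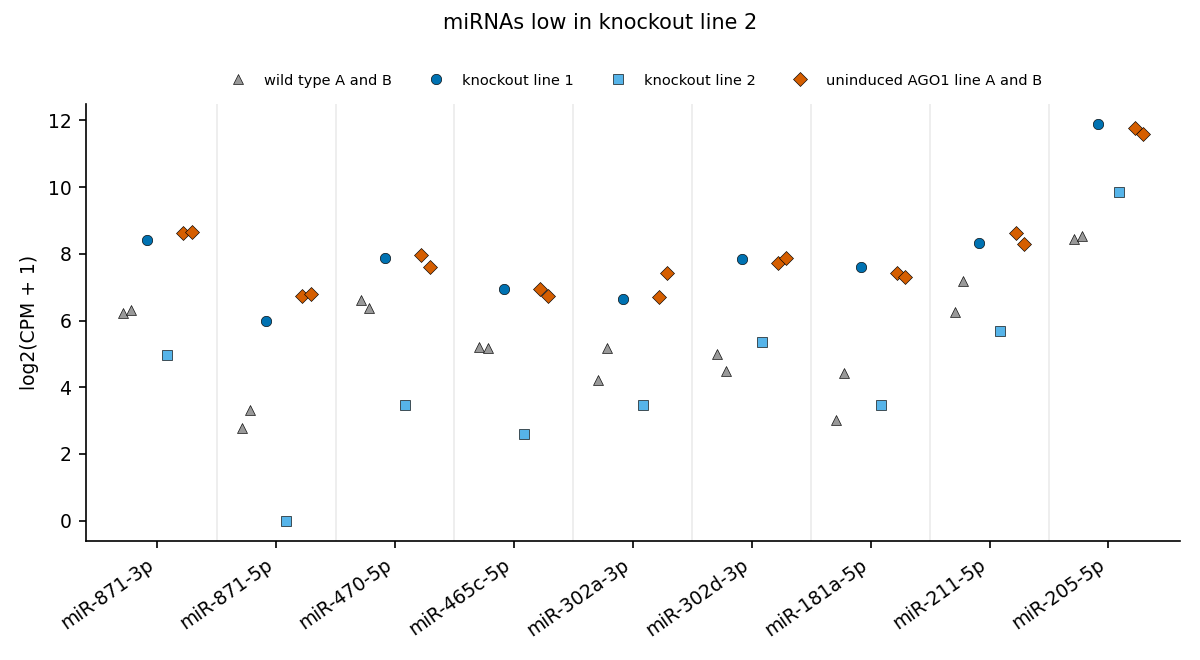
Level of 9 miRNAs as log2(CPM + 1) on the vertical axis, with 1 point for each library of wild type, knockout lines 1 and 2 and the uninduced AGO1 line. In each of the 9 the knockout line 2 point lies below that of line 1 and below both AGO1 line points, which stand near line 1; for miR-871-5p line 2 has 0 counts.

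Between the knockout lines themselves, the test of whether the comparisons with lines 1 and 2 differ, miR-871-3p differed (line 2 minus line 1) by -3.48 ± 0.50 (adjusted p 2.85e-07 by edgeR), miR-205-5p by -2.06 ± 0.27 (adjusted p 2.09e-08) and miR-211-5p by -2.67 ± 0.48 (adjusted p 2.95e-05). Of the 40 tested miRNAs with their only position on the X chromosome (a list made after the values were seen), 8 fell and 1 rose in line 2. Of all miRNAs, 4.63% fell and 3.37% rose. The median of the 40 was -1.00, beside 0.01 for all miRNAs. The list, which holds miR-2137 described below, took 0.885 and 3.14% of counts in knockout lines 1 and 2. In the uninduced line A and B it took 0.900 and 2.17%. In the AGO1 line 5 of these 40 rose and 4 fell against line 2, beside 7.79% of all miRNAs higher and 4.84% lower. Against line 1, 1 rose and 5 fell, beside 4.42% higher and 3.37% lower.

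Among the blood cell markers, both arms of miR-142a were lower in the AGO1 line than in line 2, and miR-150-5p was higher. miR-142a-5p, a miRNA of blood cells, measured 1689 CPM in knockout line 1, 3249.7 in line 2, and 1567 and 1462 in the uninduced line A and B, and 265 and 454 in wild type. It fell against line 2 (-1.10 ± 0.23, adjusted p 0.000346 by edgeR) and had -0.16 ± 0.23 (adjusted p 0.769) against line 1. miR-150-5p, a lymphocyte miRNA, lay the other way, at 3685 CPM in knockout line 1, 2596 in line 2, and 4366 and 5013 in the uninduced line A and B, and rose against line 2 (0.85 ± 0.23), a call that ended without either induced library and without TMM factors. The 5 tested blood markers took 0.653 and 0.794% of counts in knockout lines 1 and 2 and 0.652 and 0.721% in the AGO1 line, and their part in the other differences was not tested; miR-223-3p and miR-144-3p, which mark myeloid and red cells, had 0 counts in all 4. In the lists of neural and of liver and endoderm markers, 0 of 11 and 0 of 3 were called in any of these comparisons. Of 7 tested fibroblast and smooth muscle markers, 1 was called higher against line 1, lower against line 2 and higher in line 2 than in line 1: miR-21a-3p, described below.

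A last set was higher in line 2 than in line 1, with the AGO1 line divided. miR-2137 had 13 counts in line 1 and 4139 in line 2, which is 32.4 and 20821 CPM, with 2978 and 15726 in the AGO1 line A and B. miR-6240 measured 247 CPM in knockout line 1, 3084 in line 2, and 1436 and 3729.9 in the uninduced line A and B, and miR-690 9.98 CPM in knockout line 1, 709 in line 2, and 192 and 708 in the uninduced line A and B. miR-712-5p, known to come from a spacer of ribosomal RNA, had 0 counts in line 1 and 11 in line 2, and was at least 15.9-fold higher in the AGO1 line than in line 1. It measured 71.9 and 235 CPM in the AGO1 line A and B, both above its level in line 2. Library B was well above library A in each of these 4. For miR-2137, miR-6240 and miR-690 the high libraries, line 2 and AGO1 line B, are the 2 with the fewest counts, 163467 and 292895, and the part of depth in this was not tested. miR-2137 and miR-690 rose against line 1 by 8.16 ± 0.83 and 5.41 ± 0.73, and had -1.16 ± 0.47 (adjusted p 0.096 by edgeR) and -0.72 ± 0.41 (adjusted p 0.305) against line 2.

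miR-1195 and miR-21a-3p were called higher against one line and lower against the other, with the AGO1 line between them. miR-1195 measured 324 CPM in knockout line 1, 2198 in line 2, and 1155 and 1005 in the uninduced line A and B, so that it rose against line 1 (1.74 ± 0.26, adjusted p 6.65e-07 by edgeR) and fell against line 2 (-1.02 ± 0.22, adjusted p 0.000772). miR-21a-3p measured 219.5 CPM in knockout line 1, 865 in line 2, and 441 and 417 in the uninduced line A and B, with 0.97 ± 0.28 (adjusted p 0.025 by edgeR) against line 1 and -1.01 ± 0.26 (adjusted p 0.0056) against line 2. The falls of both ended without uninduced library B, and the rise of miR-21a-3p ended without uninduced library A or either induced library and with thinned counts. The main arm of this hairpin, miR-21a-5p, measured 1219.9 CPM in knockout line 1, 1177 in line 2, and 1334 and 1204 in the uninduced line A and B, with a 95% interval of -0.32 to 0.48 against both lines. miR-10a-5p, encoded in the Hoxb cluster, measured 92.3 CPM in knockout line 1, 453 in line 2, and 355 and 311 in the uninduced line A and B, rose against line 1 (1.86 ± 0.33, adjusted p 4.03e-05 by edgeR) and had -0.43 ± 0.29 (adjusted p 0.378) against line 2.

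**Figure D5:**
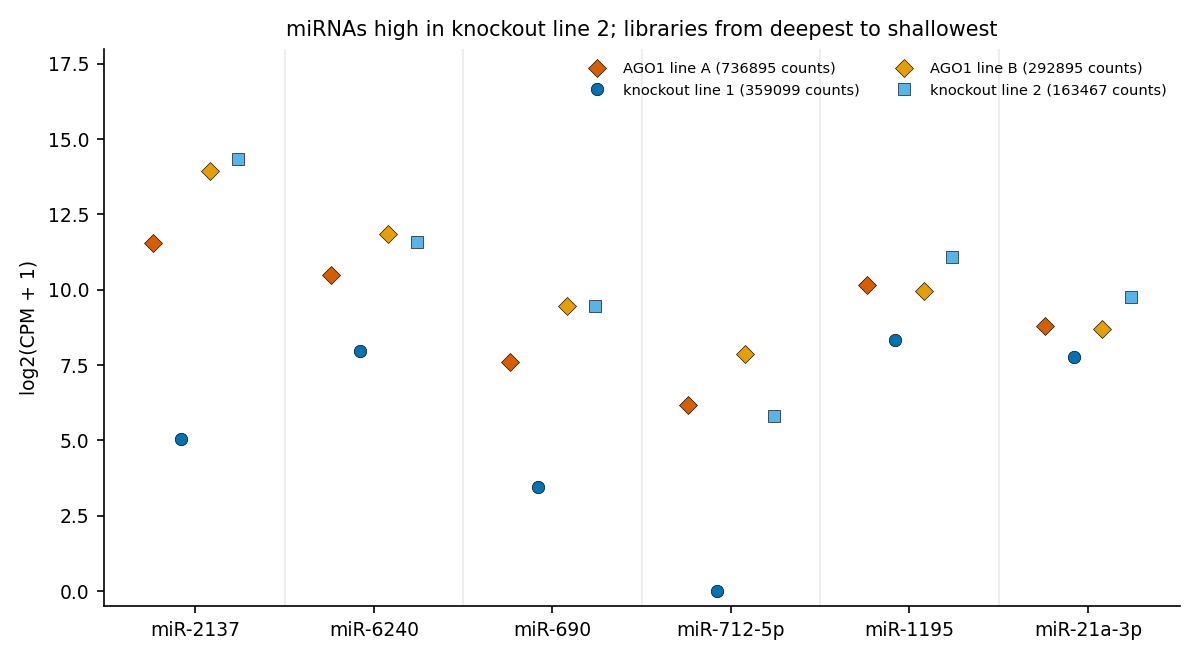
Level of 6 miRNAs as log2(CPM + 1) on the vertical axis in the 4 libraries compared, ordered within each miRNA from the deepest to the shallowest library, whose totals of counts the legend gives. Knockout line 1 is the lowest point for each of the 6; the 2 shallowest libraries are the 2 highest for miR-2137, miR-6240 and miR-690, and knockout line 2 alone is highest for miR-1195 and miR-21a-3p.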

How the data were processed

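An Illumina TruSeq kit turned 1 µg of total RNA into each small RNA library, per the labels' protocols. The authors deposited raw counts of mature miRNAs. Per the submitters' processing notes, Bowtie and mm10 were used; trimming, mismatch and annotation settings: not given in the sources used here. Of 2 header lines, which differed in 1 name, the first was read.

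edgeR 4.0.16 (R 4.3.3) tested the counts of the 475 miRNAs that passed filterByExpr (99.9% of counts) with TMM factors and a 2-sided quasi-likelihood F test over all 8 libraries. The fit had 4 groups (4 residual degrees of freedom) or 5 for single knockout lines (3). Benjamini-Hochberg adjustment ran over all 475 in each comparison. SE is the absolute log2 fold change over the root of F, and intervals are 95%. The scripts were tested on simulated data. DESeq2 was 1.42.0.

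The members, 25 lists and tests were chosen with earlier results of these data known. Named miRNAs are 2 from each list, by adjusted p, the 10 most abundant, the 10 largest called differences between the knockout lines, miRNAs called in opposite directions against them, miR-451a, miR-486 and called arm ratios. Called large changes against both lines together were also in the rule, and there were 0. Both size rules asked for a mean of at least 20 CPM. Other names were chosen after their values were seen. Coordinates and sequences are from GENCODE vM21 and RefSeq on GRCm38. Alternatives were other scaling, DESeq2, other abundance filters, only the libraries compared, a 2-fold limit, thinned counts and each library left out.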

Additional observations from a re-analysis of the deposited data

Results flagged for a closer look

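2 miRNAs were called in opposite directions against the 2 knockout lines, and the test between the lines called the difference of both. miR-1195 was 1.74 ± 0.26 (log2 fold change ± SE) against knockout line 1 and -1.02 ± 0.22 against line 2, a difference between the lines of 2.76 (adjusted p 3.25e-11 by edgeR, line 2 minus line 1). miR-21a-3p was 0.97 ± 0.28 against line 1 and -1.01 ± 0.26 against line 2, a difference of 1.98 (adjusted p 4.77e-06 by edgeR). Each knockout line is 1 library, so line and library cannot be told apart.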

How the results depend on the processing

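Against both knockout lines, 0 miRNAs were also called with DESeq2 size factors, a mean of at least 20 CPM, only the 4 libraries compared, a 2-fold limit and thinned counts. Library totals without TMM factors gave 2 calls (miR-290a-5p and miR-363-3p), the DESeq2 Wald test 15 and no abundance filter 14. With each library left out in turn the count ran from 0 to 61, 61 without knockout line 1 (35 higher, 26 lower), 33 without line 2 (17 and 16) and 0 otherwise. 3 log2 fold changes against both lines turned over and were called without knockout line 2: miR-2137 ran from -1.57 (without uninduced library B) to 8.14, miR-1195 from -1.02 (without line 1) to 1.72 and miR-21a-3p from -1.00 (without line 1) to 0.94. Against line 1 the 37 calls became 24 with DESeq2 and 14 with counts thinned to the smallest library, and ran from 18 (without induced library A or B) to 50. Against line 2 the 60 calls became 37 with DESeq2 and 34 with thinned counts, and ran from 34 (without induced library B; 36 without A) to 90 (without wild type A). Between the knockout lines the 38 calls became 24 without TMM factors and 24 with DESeq2, and ran from 29 to 50. The arm ratio gave 2 calls with no abundance filter, 0 with thinned counts and 0 to 2 with a library left out. Of 3031 values of named miRNAs under an alternative, 248 lost a call, 95 gained one and 56 changed sign, of which the 3 above were called; the cause was not tested. No paired analysis was possible because the knockout lines carry the numbers 1 and 2 and the AGO1 line libraries the letters A and B, which share none. The depth of knockout line 2 limits every value there, since 1 count is 5.03 CPM.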

Other observations

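Of the miR-23, miR-24 and miR-27 clusters, 8 members were tested, 3 below both knockout lines and 2 above both, beside 22.5 and 22.1% of all miRNAs. The median log2 fold change was -0.42 (-0.09 without knockout line 1 and -0.21 without uninduced library B). miR-27b-5p measured 549 CPM in knockout line 1, 895 in line 2, and 366 and 317 in the uninduced line A and B, and 237 and 127 in wild type, and fell against line 2 (-1.38 ± 0.28, adjusted p 0.000332 by edgeR). Its value against line 1 was -0.67 ± 0.28 (adjusted p 0.137). In the cluster of miR-96, miR-182 and miR-183, which sensory cells express, miR-182-5p measured 104694 CPM in knockout line 1, 104504 in line 2, and 136181 and 107930.0 in the uninduced line A and B, and 2 of 6 members were above both knockout lines, beside 22.1% of all miRNAs. The lists of miR-15 and miR-16, of miR-30 and of miR-148 and miR-152 miRNAs had medians of -0.07, 0.05 and 0.04, beside -0.01 for all miRNAs. Of their 12, 11 and 6 tested members, 1, 1 and 1 were below both knockout lines and 0, 3 and 2 above both. The shares over all miRNAs were 22.5 and 22.1%.

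Of the miRNAs whose processing is known to need AGO2 slicing, miR-486 had counts in all 4 libraries. miR-486b-5p measured 17.5 CPM in knockout line 1, 121 in line 2, and 55.9 and 39.7 in the uninduced line A and B, and 47.5 and 58.5 in wild type. It was higher in knockout line 2 than in line 1 (2.78 ± 0.65, adjusted p 0.00196 by edgeR), from 24 and 7 counts, a call that ended with thinned counts. Against both lines the AGO1 line stood at -0.27 ± 0.67 with an adjusted p of 0.899.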
